A study of Bos taurus with 8 samples.

Results

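The plasminogen activators and the serpins that restrain them were followed in pools of bovine blastocysts. The group holds PLAT, PLAU, PLAUR, SERPINB2 and SERPINE2, which are 5 of the 15229 genes named on the array. SERPINB2 has 2 probes and each of the others has 1, so the genes are read by 6 probes. They were picked by name with the glucose to control ratios of these arrays already known, and so selected on the values described here. Those ratios are therefore given as a description, with no test of any member. All 6 probes passed the filter on dim signal.

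Embryos were made by in vitro maturation, fertilization and culture from ovaries collected at slaughter of dairy cattle. Glucose embryos were held in 5 mM glucose from day 0 to day 3, and control embryos, labelled vitro, in 0.2 mM glucose over the same days. Both then went into the normal culture medium and were collected at 180 h after fertilization, so the readings come from blastocysts that had left the treatment days earlier. Each group had 4 pools of 10 embryos, all with albumin of the same supplier. A pool of whole blastocysts mixes trophectoderm, inner cell mass and endoderm. Glucose and control pools were hybridised together, on 8 arrays of 2 colours that make 4 pool pairs, each measured once in either dye orientation.

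Plasminogen activators are serine proteases that cut the zymogen plasminogen into plasmin, a protease of broad reach that dissolves fibrin and degrades extracellular matrix. PLAT encodes the tissue type activator, which works best when bound to fibrin, and PLAU encodes urokinase, which the receptor PLAUR holds at the cell surface. SERPINB2, also called plasminogen activator inhibitor type 2, and SERPINE2, also called protease nexin 1, are serpins that trap these proteases, and SERPINE2 also inhibits thrombin. Mammalian blastocysts are known to release plasminogen activator around hatching, and bovine granulosa and cumulus cells are known to make SERPINE2.

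Every ratio below is log2(glucose/control), positive where the glucose pool was brighter, and is given per pool pair or as the mean over 4 pairs with the SD between them. Levels are normalised log2 signals of single pools, each the mean of a Cy5 and a Cy3 reading. Levels of different probes cannot be set against each other. Signal above the negative controls in either channel was seen for 66.2% to 82.2% of the probes of an array, and 32935 were kept for the fit. The number of arrays limits the precision. The 5 mM and 0.2 mM pools of a pair share their arrays. Of the markers named on the array, 10 of 10 for inner cell mass and 19 of 20 for trophectoderm passed the filter, but so did 18 of 22 for cumulus and granulosa, 15 of 18 for mesenchyme, 8 of 9 for blood and 12589 of all 15229 named genes, so passing does not check the blastocyst label. POU5F1, the gene of OCT4, was above the negative controls in 8 of 8 channels of either group. Pair 4 had the widest ratios over all tested probes, with an SD of 0.43 against 0.19, 0.21 and 0.24 in pairs 1 to 3.

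No probe on the array passed the adjusted threshold for glucose against control. After Benjamini-Hochberg adjustment of the limma fit, 0 of 32935 probes (0%) had an adjusted p under 0.05, and 780 had an unadjusted p under 0.05. The members' mean ratios lay between 0.27 and 1.20, all above 0. PLAT had the widest mean ratio of the 5 genes, and the SERPINB2 probes had the most even one. Both SERPINB2 probes and the PLAUR probe were above 0 in all 4 pairs, and over all tested probes 5.19% were. Since the members were selected on this contrast, nothing is read from that count.

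**Figure D1:**
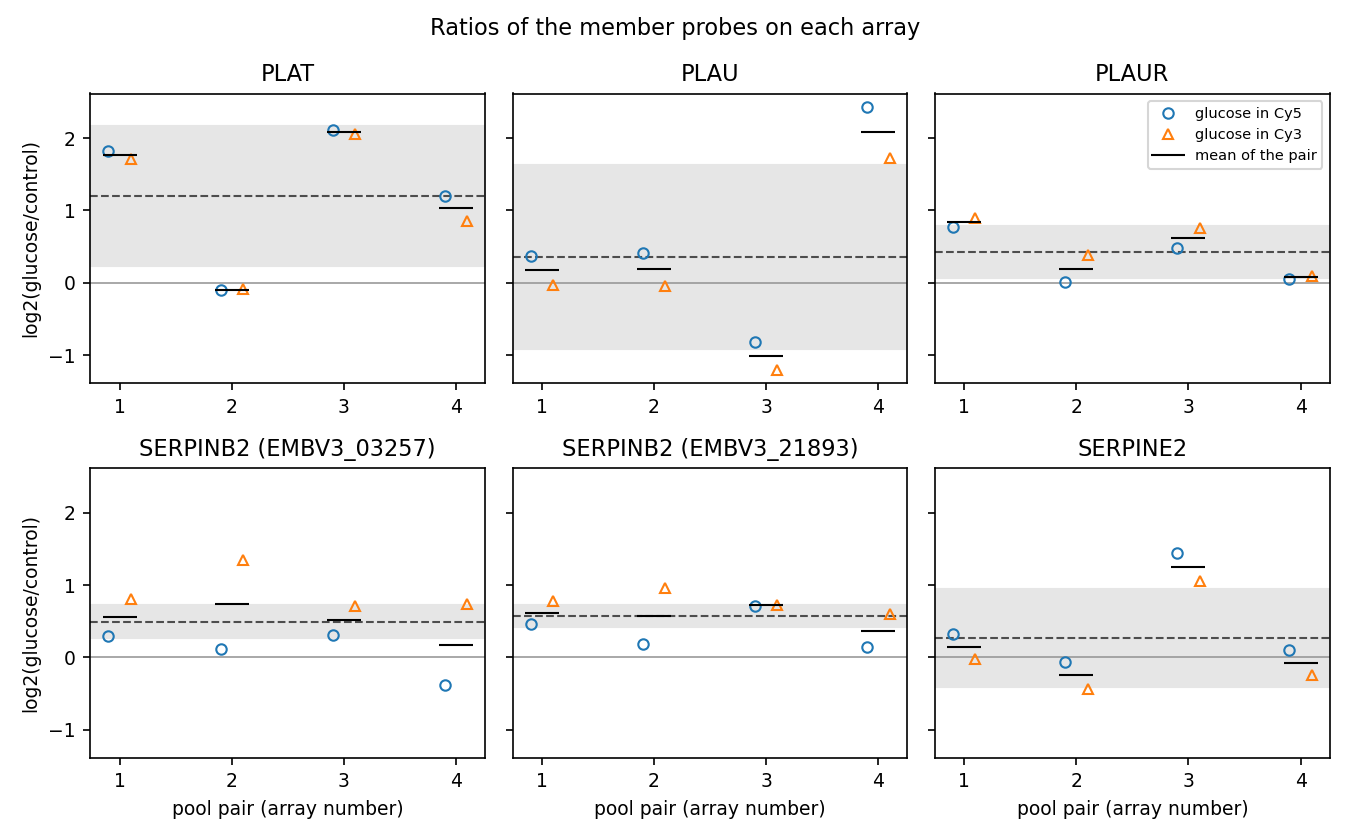
Log2(glucose/control) of the 6 member probes on each of the 8 arrays, by pool pair. Circles are arrays with glucose in Cy5, triangles arrays with glucose in Cy3, black bars the mean of a pair, the dashed line the mean of 4 pairs and the grey band 1 SD either side. PLAT is high in pairs 1 and 3 and at -0.10 in pair 2, PLAU runs from -1.01 in pair 3 to 2.08 in pair 4, and both SERPINB2 probes are above 0 in every pair.

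PLAT, the tissue type activator, was brighter in the glucose pool of 3 of the 4 pairs, by a wide margin in pairs 1 and 3. Its ratios were 1.77, -0.10, 2.08 and 1.03 in pairs 1 to 4, a mean of 1.20 ± 0.97 (SD, n = 4) or 2.29-fold. Pair 3 was the highest, at 4.23-fold, and pair 2 lay just below 0. The spots behind these values were far from the floor in pairs 1 and 3: with glucose in Cy5, pair 1 read 3837 in the glucose channel and 724 in the control channel, and pair 3 read 2290 and 562. In pair 2 the same probe read 211 and 182 with glucose in Cy5, against a Cy5 limit of 153 and a Cy3 limit of 138 from the negative controls. The control spots of pair 4 were also dim, at 197 in Cy5 and 290 in Cy3, against limits of 154 and 235. The 2 arrays of a pair differed by 0.35 at most, in pair 4, less than the SD of 0.97 between pairs.

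The level of PLAT differed between pool pairs in the control pools as well as in the glucose pools. The glucose pools had levels of 11.49, 7.38, 11.14 and 8.75 in pairs 1 to 4, and the control pools had 9.72, 7.48, 9.06 and 7.72. Pairs 1 and 3 were the higher ones on both sides, and the control pools of pairs 1 and 3 exceeded the glucose pools of pairs 2 and 4. The groups overlapped, with control levels wholly inside the span of the glucose levels. In such pools fewer cells of a type and less RNA per cell cannot be told apart. From the lowest pool to the highest PLAT spanned 4.11 on the log2 scale, 17.2-fold. Over the 4 control pools, none of which met high glucose, it spanned 2.24. Both spans start from dim pools, at 7.38 and 7.48, near the floor.

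In pair 1, PLAT was at least 2-fold brighter in the glucose pool on both arrays, as were 0.24% of all tested probes, and in pair 3 PLAT and SERPINE2 were, as were 0.416% of all tested probes. In pair 4, PLAU was, as were 2.02% of all tested probes. These shares describe where the members stand within single pairs, and the members were chosen with those values known. In pairs 1 and 3 alike, 0.0941% of tested probes were as high as PLAT or higher. In pair 2 that share was 75.3%.

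PLAU, which encodes urokinase, ran in opposite directions in pairs 3 and 4. Its ratios were 0.17, 0.18, -1.01 and 2.08 in pairs 1 to 4, a mean of 0.36 ± 1.28 (SD, n = 4). Pairs 1 and 2 were near 0, the glucose pool was dimmer by 2.02-fold in pair 3 and brighter by 4.23-fold in pair 4, and the spread between pairs was more than the mean. Without pair 4 the mean was -0.22, and with pairs 2 and 4 alone it was 1.13, so the direction of the PLAU mean rests on pair 4. Of all tested probes, 0.161% had an SD between pairs as large as that of PLAU.

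The pools show which side of each pair stood apart for PLAU. Glucose pools had levels of 14.22, 14.49, 12.94 and 14.33 in pairs 1 to 4, and control pools had 14.05, 14.31, 13.95 and 12.25. Of the 8 pools, 6 lay between 13.95 and 14.49, and the glucose pool of pair 3 and the control pool of pair 4 lay below them. The large ratio of pair 4 therefore came with a dim control pool: with glucose in Cy3 the spots read 16543 for glucose and 4947 for control, and with glucose in Cy5 they read 23908 and 3913. In pair 3 with glucose in Cy3 they read 5036 for glucose and 22441 for control. The groups overlapped.

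Trophectoderm markers had their lowest and highest ratios in the same pairs as PLAU. Over 19 tested markers the median ratio was -0.01, 0.13, -0.22 and 0.38 in pairs 1 to 4. PTGS2, a prostaglandin synthase counted among the trophectoderm markers and the cumulus markers, had -0.07, 0.26, -0.70 and 2.60 on its brightest probe, and its other 2 tested probes had 1.45 and 0.33 in pair 4. The summed level of the trophectoderm list was 122189 to 172007 over the glucose pools and 138549 to 162215 over the control pools, and it was lowest in the glucose pool of pair 3. In the control pool of pair 4, where PLAU was lowest, the sum was 145745, above the 138549 of the control pool of pair 3. The sum leans on its brightest probes, and KRT8 had its highest level in that pool, 15.32, against 14.48 in the control pool of pair 3. Nothing is read from the order of these 2 sums. Of the 19 markers, 13 were below 0 in pair 3 and above 0 in pair 4 as PLAU was, and 3 had the opposite signs. These 3 were KRT8, a keratin, with 0.56 and -1.27 in pairs 3 and 4, the endocytic adaptor DAB2 with 0.34 and -0.60, and the transcription factor ELF5 with 0.01 and -0.10. The share of all tested genes with the same turn was not counted, so nothing is read from the tally of 13 and 3. Between pool pairs, the ratios of all tested probes correlated at -0.28 to 0.21. The part of the trophectoderm markers in the PLAU values was not tested.

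**Figure D2:**
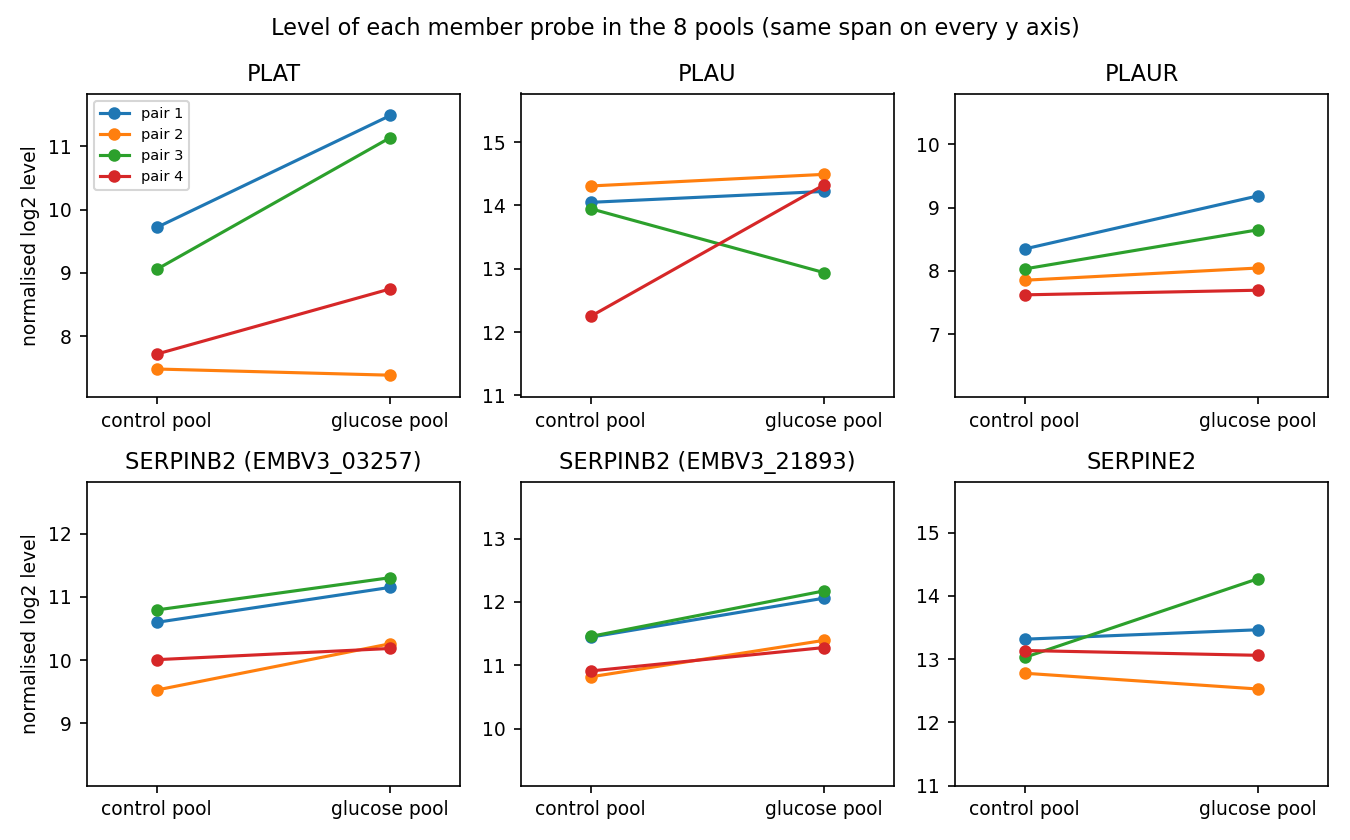
Normalised log2 level of each member probe in the 8 pools, with a line joining the control pool and the glucose pool of each pair; all y axes span the same range. PLAT, PLAUR and SERPINB2 are higher in pairs 1 and 3 in both groups, the low PLAU pools are the control pool of pair 4 and the glucose pool of pair 3, and the high SERPINE2 pool is the glucose pool of pair 3.

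PLAUR, the receptor that holds urokinase at the cell surface, was brighter in the glucose pool of all 4 pairs, and by little in pairs 2 and 4. Its ratios were 0.84, 0.19, 0.62 and 0.07 in pairs 1 to 4, a mean of 0.43 ± 0.36 (SD, n = 4) or 1.35-fold. On single arrays the ratio was above 0 on all 8, from 0.01 to 0.90. The glucose pools had levels of 9.19, 8.04, 8.65 and 7.69, and the control pools had 8.35, 7.85, 8.03 and 7.62. The groups overlapped, and both were ordered from pair 1 through pairs 3 and 2 to pair 4. With pairs 2 and 4 alone the mean was 0.13. PLAUR had dim spots: in pair 4 with glucose in Cy3 it read 193 for glucose and 203 for control, against limits of 110 in Cy3 and 154 in Cy5.

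SERPINB2, the plasminogen activator inhibitor type 2, had the most even ratio of the 5 genes. Its brighter probe, EMBV3_21893, had 0.62, 0.58, 0.72 and 0.37 in pairs 1 to 4, a mean of 0.57 ± 0.15 (SD, n = 4) or 1.49-fold. The other probe, EMBV3_03257, had 0.55, 0.73, 0.51 and 0.18, a mean of 0.49 ± 0.23 or 1.41-fold. Both were above 0 in all 4 pairs, and leaving out any 1 pair gave means of 0.52 to 0.64 for the brighter probe and 0.41 to 0.60 for the other. With pairs 2 and 4 alone the means were 0.47 and 0.45. The probes share a transcript and the same arrays and are not independent readings of a pool.

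Both SERPINB2 probes read lower with glucose in Cy5 than with glucose in Cy3. The dye effect was -0.20 for EMBV3_21893 and -0.40 for EMBV3_03257, as log2(Cy5/Cy3), and it cancels in the mean of a pair. Single arrays of EMBV3_21893 ran from 0.14 to 0.96, all 8 above 0. Those of EMBV3_03257 ran from -0.38 to 1.35, with 7 of the 8 above 0. The widest gap between arrays of 1 pair was 1.23, for EMBV3_03257 in pair 2, more than the SD between pairs, so its pair means rest on the averaging of both dyes.

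In the pools SERPINB2 also had the higher levels in pairs 1 and 3 in both groups. EMBV3_21893 had 12.06, 11.39, 12.18 and 11.28 in the glucose pools of pairs 1 to 4 and 11.44, 10.82, 11.46 and 10.91 in the control pools. Each glucose pool was above its own control pool, but the glucose pools of pairs 2 and 4 were below the control pools of pairs 1 and 3, so the groups overlapped. EMBV3_03257 likewise had pairs 1 and 3 above pairs 2 and 4 within each group, with 10.19 to 11.30 in glucose pools and 9.53 to 10.79 in control pools. Over the 8 pools the levels of the 2 probes correlated at 0.96.

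SERPINE2, protease nexin 1, had its 1 high pool in the glucose pool of pair 3. Its ratios were 0.15, -0.25, 1.25 and -0.08 in pairs 1 to 4, a mean of 0.27 ± 0.67 (SD, n = 4). Pair 3 was at 2.37-fold, and pairs 1, 2 and 4 lay on either side of 0. Without pair 3 the mean was -0.06, and with pairs 2 and 4 alone it was -0.16. The glucose pools had levels of 13.46, 12.53, 14.27 and 13.06, and the control pools had 13.31, 12.78, 13.03 and 13.14. The control pools spanned 0.54 and the glucose pools 1.74, with the control levels inside the glucose span.

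**Figure D3:**
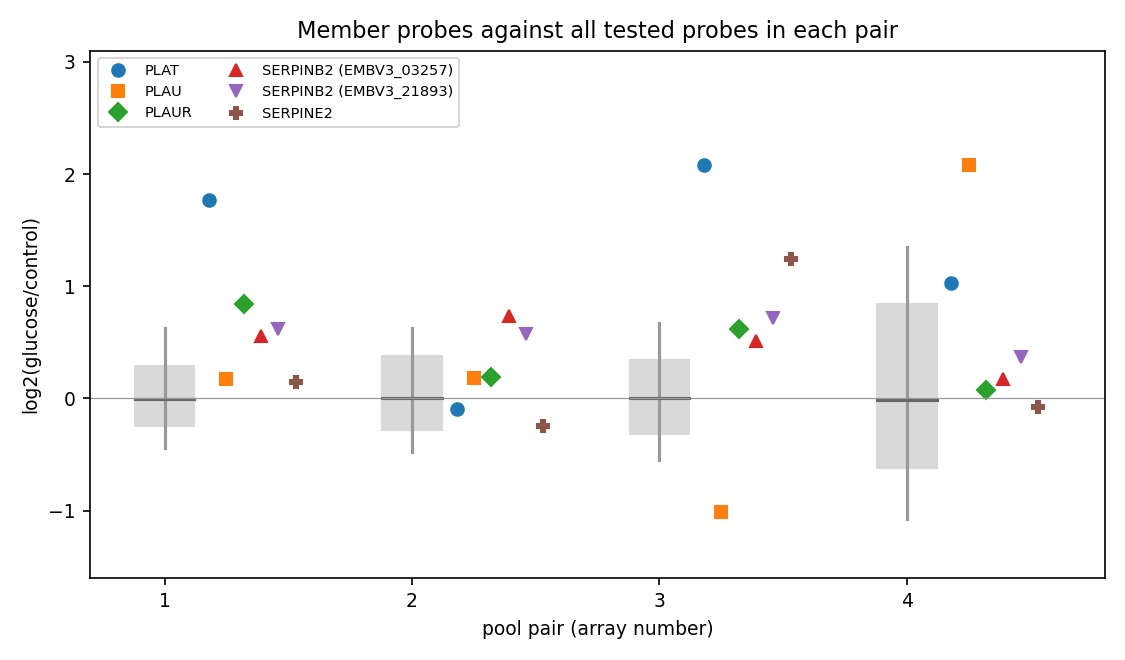
Log2(glucose/control) of the member probes in each pool pair beside all 32935 tested probes, shown as the 1% to 99% range (line), the 5% to 95% range (grey box) and the median. PLAT in pairs 1 and 3, PLAUR in pair 1, SERPINB2 EMBV3_03257 in pair 2, SERPINB2 EMBV3_21893 and SERPINE2 in pair 3 and PLAU in pair 4 lie above the 99% limit, and PLAU in pair 3 lies below the 1% limit.

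Across pools the levels of PLAT, PLAUR, SERPINB2 and SERPINE2 correlated with each other more than with those of PLAU. Over the 8 pool levels PLAT correlated at 0.88 with PLAUR, at 0.90 with both SERPINB2 probes and at 0.83 with SERPINE2. PLAU correlated with the other probes between -0.50 and 0.13, lowest with SERPINE2. These are descriptions over 8 points, of which the glucose pool and the control pool of a pair share arrays and normalisation. Urokinase and its receptor PLAUR correlated at 0.13.

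The genes whose pool levels were most like those of each member were taken over 12588 other named genes by Pearson correlation over the 8 pools. They were picked on these same levels, so high correlations and a shared pattern across pairs follow from the choice. Nothing is read from either. For PLAT they were HTRA1, a secreted serine protease (0.99), STRA6, the retinol transport receptor (0.99), and OLR1, a scavenger receptor for oxidised lipoprotein (0.99). HTRA1 had ratios of 1.95, 0.06, 2.12 and 0.41 in pairs 1 to 4, STRA6 had 2.48, -0.48, 2.53 and 0.48, and OLR1 had 1.4996, -0.35, 1.84 and 1.25. All were high in pairs 1 and 3 as PLAT was, OLR1 was also above 1 in pair 4, and the other tested STRA6 probe was near 0 in each pair, between -0.11 and 0.05. For SERPINB2 they were TNFRSF1A, a tumour necrosis factor receptor (0.99), SMARCA1, a chromatin remodelling ATPase (0.97), and JAM2, a junctional adhesion molecule (0.97).

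For PLAU the nearest were OPTN, an autophagy receptor (0.99), CDV3 (0.99) and BASP1, a membrane-attached signal protein (0.99). They had ratios of -0.43, -0.71 and -0.49 in pair 3 and of 0.93, 1.27 and 1.27 in pair 4. That turn, shared with PLAU on a smaller scale, follows from the choice by likeness. For PLAUR they were IL21R, a cytokine receptor (0.99), CA2, a carbonic anhydrase (0.97), and PLEKHG1 (0.96). For SERPINE2 they were TARSL2, a threonyl-tRNA synthetase (0.98), OTC, a urea cycle enzyme (0.98), and IFI16, a sensor of foreign DNA (0.97), with ratios of 1.01, 0.44 and 1.36 in pair 3. IL21R (levels of 6.66 to 7.82), CA2 (6.24 to 8.26) and OTC (6.93 to 7.60) were near the floor in most pools. So were SMARCA1 (6.82 to 7.93), PLEKHG1 (7.13 to 8.23) and TARSL2 (7.12 to 8.61). OLR1 and JAM2 came down to 6.62 and 6.47 in their dimmest pool, the control pool of pair 4.

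The rest of the plasminogen system had ratios near 0 at the median. In 6 lists outside the members, 49 of 72 genes were tested, of which 28 lay above 0 and 21 below. Their median ratio was 0.03, against 0.01 over all 12589 named genes tested. Some of the 49 were near the floor in every pool, such as FGA (levels of 6.83 to 7.06) and ITGAV (6.91 to 7.06). The offset of the background correction shrinks ratios there, so a median near 0 does not show that these genes were unchanged. After Benjamini-Hochberg adjustment of the limma fit 0 of the 49 passed in either direction, and each system gene named below had an adjusted p of 0.977. At an unadjusted p under 0.05 there were 2 upward and 1 downward, where 2.7% of all named genes tested were below that p in either direction. PLGRKT and LRP1 are not analysed here, and PLG, plasminogen itself, had no channel above the negative controls on any array.

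Of the plasminogen receptors, ANXA2 and ENO1 had their highest ratio in pair 4. Over the 4 tested genes of that list 2 were above 0 and 2 below, with a median of 0.05. ANXA2, which with S100A10 binds plasminogen and PLAT at the cell surface, had -0.01, -0.02, -0.06 and 1.11 in pairs 1 to 4, a mean of 0.26 ± 0.57 (SD, n = 4). Its control pool of pair 4 had a level of 13.04, and the other 7 pools lay between 13.82 and 14.15, so a dim control pool stood behind that ratio as for PLAU. S100A10 had -0.07 ± 0.06. ENO1, an enolase that also binds plasminogen, had 0.14, 0.11, -0.66 and 0.90 on its brighter probe, and its other tested probe had -0.14 in pair 4.

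Among inhibitors outside the members, 5 genes were tested, 3 above 0 and 2 below, with a median of 0.10. The list's median was 0.12, -0.15, -0.07 and -0.07 in pairs 1 to 4, and the median of the means turned to -0.06 without pair 4 and to -0.11 with pairs 2 and 4 alone. SERPINF2, the antiplasmin, was below 0 in all 4 pairs with -0.17 ± 0.09 (limma, unadjusted p = 0.0317). SERPINA5, the protein C inhibitor, had 0.69, 0.52, 1.71 and -1.08 in pairs 1 to 4. SERPINI1, neuroserpin, which acts on PLAT, had 0.12 ± 0.38, and the general protease trap A2M had 0.10 ± 0.29.

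Uptake receptors and receptor partners had a median of 0.01 over 10 genes, 6 above 0 and 4 below. VTN, the matrix protein vitronectin that PLAUR binds, had -0.06 ± 0.08 on the brighter of its 2 tested probes. SORL1, a sorting receptor of the low density lipoprotein receptor family, had 0.15 ± 0.42, with 0.78 in pair 2. That is the brightest of its 3 tested probes, and the others are not given here.

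Activating proteases and substrates had a median of 0.01 over 11 genes, 6 above 0 and 5 below. PDGFC, a growth factor that PLAT is known to activate, had 1.08, 0.02, 2.21 and 0.36 in pairs 1 to 4, a mean of 0.92 ± 0.97 (SD, n = 4), high in pairs 1 and 3 as PLAT was. Its 2 dimmer probes had means of 0.28 and -0.08, so the probes disagree. LTBP1, which holds latent TGF-beta in the matrix and is cut by plasmin, had 0.57, 0.05, 1.39 and -0.14.

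The thrombin and coagulation list had a median of 0.01 over 10 genes, 5 above 0 and 5 below. SERPINC1, antithrombin, had 0.21 ± 0.13 and was above 0 in 4 of 4 pairs (limma, unadjusted p = 0.0285). F2, prothrombin, had -0.33 ± 0.42, and the thrombin receptor F2R had 0.11 ± 0.44 on its brighter probe and -0.27 on the other. Other serpins had a median of 0.16 over 9 genes, 6 above 0 and 3 below, and of -0.0011 with pairs 2 and 4 alone. SERPINB8, of the same clade as SERPINB2, had 0.44 ± 0.35 (limma, unadjusted p = 0.0302), and SERPINB10 had 1.00, -0.07, 1.39 and 0.07 in pairs 1 to 4.

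**Figure D4:**
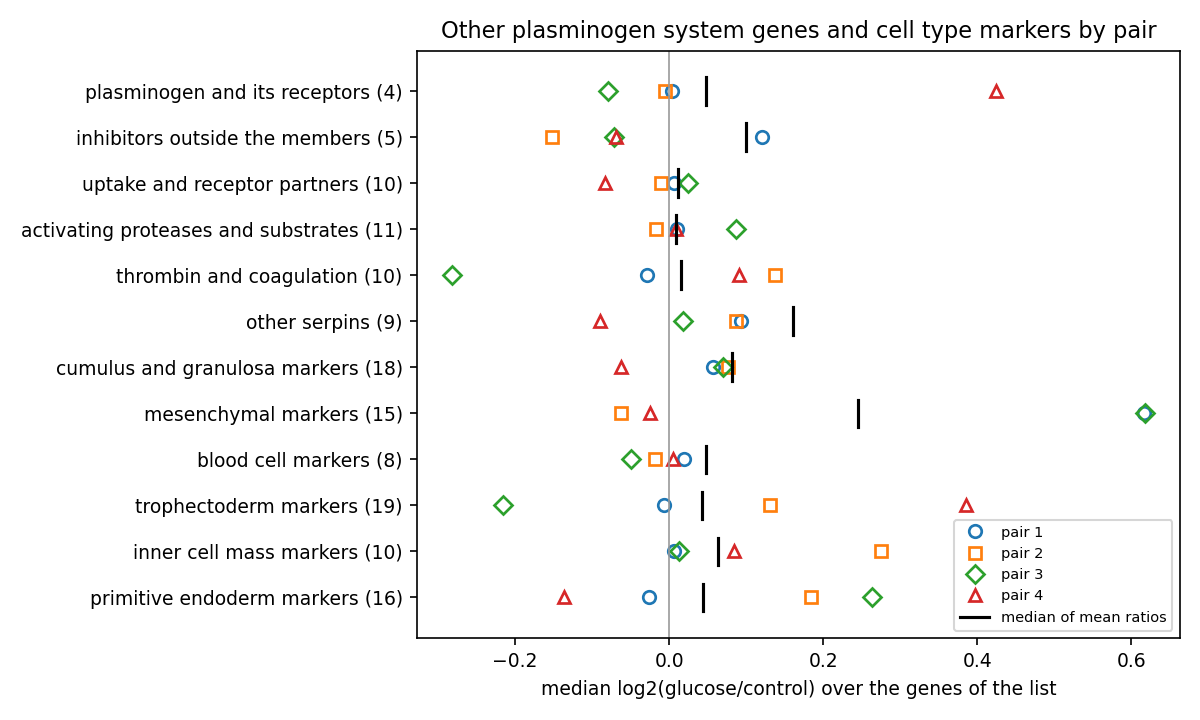
Median log2(glucose/control) of each gene list in pool pairs 1 to 4, with the number of genes tested in parentheses and a black bar at the median of the genes' mean ratios. The mesenchymal markers lie at 0.62 in pairs 1 and 3, where the symbols coincide, and near 0 in pairs 2 and 4, and the trophectoderm markers lie at -0.22 in pair 3 and 0.38 in pair 4.

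The median of the mesenchymal markers was high in the same pairs as PLAT and PLAUR. Of 20 listed genes 15 were tested, 13 above 0 and 2 below, where 6575 of all 12589 named genes tested were above 0. The list's median was 0.62, -0.06, 0.62 and -0.02 in pairs 1 to 4. VIM, the intermediate filament vimentin, had 2.26, 0.30, 2.85 and -0.12, and LUM, the matrix proteoglycan lumican, had 1.79, -0.23, 4.53 and 1.53. Some markers did not share that pattern. TAGLN and COL1A1, the 2 below 0, had -0.10 and -0.04 in pair 1 and -0.03 and 0.17 in pair 3. ACTA2 had -0.07 and -0.43 in pairs 1 and 3, and TWIST1 had 0.06 and -0.21. The list's summed level was 45869, 25903, 57610 and 32132 in the glucose pools of pairs 1 to 4, and 33027, 23916, 35102 and 24984 in the control pools. Like PLAT, it was higher in pairs 1 and 3 in both groups. In the control pools the sum leans on ACTA2, the brightest probe of the list, which had levels of 14.65, 14.29, 14.78 and 14.26 there. Nothing is read from the order of the control sums. FAP and PRRX1 had no channel above the negative controls on any array. The part of mesenchymal markers in the values of PLAT, PLAUR, SERPINB2 and SERPINE2 was not tested.

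Cumulus and granulosa markers had medians of 0.06, 0.08, 0.07 and -0.06 in pairs 1 to 4 over 18 tested of 22 genes, 13 above 0 and 5 below. INHBA, an inhibin subunit, had -0.01, 0.41, 1.22 and -0.08, highest in pair 3 as SERPINE2 was. Other markers of the list went either way in pair 3, with PTX3 at 1.37 and HSD3B1 at -1.19. Nothing is read from INHBA alone. The list's summed level was 19611 to 28663 in glucose pools and 20116 to 24642 in control pools. It was lowest in the glucose pool of pair 3, where SERPINE2 was highest. PTGS2, among the brightest probes of that list and also a trophectoderm marker, had 12.26 in that pool. In the other glucose pools PTGS2 had 13.37, 13.58 and 13.84, so nothing is read from the place of the lowest sum. AMH and AMHR2 had no channel above the negative controls on any array. Blood cell markers had a median of 0.05 over 8 genes and summed levels of 1404 to 1689 in glucose pools and 1289 to 1737 in control pools. HBG, a haemoglobin chain, had 0.22 ± 0.14 and CD68, of macrophages, had 0.21 ± 0.41. LYZ had no channel above the negative controls.

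The inner layers of the blastocyst gave medians of mean ratios near 0, with medians further from 0 in some pairs. Inner cell mass markers had 0.06 over 10 genes, 7 above 0 and 3 below, with SPP1 at 0.47 ± 0.34 and NANOG at -0.36 ± 1.10, and summed levels of 11924 to 16995 in glucose pools and 13097 to 17528 in control pools. Primitive endoderm markers had 0.04 over 16 genes, 10 above 0 and 6 below, with LAMA1 at 0.45 ± 0.15 and HNF4A at -0.41 ± 0.94 on its brighter probe and 0.03 on the other, and summed levels of 69950 to 91637 and 72000 to 92875. By pair, the inner cell mass median was 0.01, 0.27, 0.01 and 0.08 in pairs 1 to 4. The primitive endoderm median was -0.03, 0.18, 0.26 and -0.14. ASCL2, a trophoblast transcription factor, had -0.42 ± 0.33. None of these genes passed the adjusted threshold.

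The arrays came in 2 sets, 047 and 056, with 1 array of each pair in either set. Within set 047 and set 056 the mean ratios were 1.16 and 1.23 for PLAT, 0.33 and 0.39 for PLAU, 0.41 and 0.46 for PLAUR, and 0.27 and 0.27 for SERPINE2. For SERPINB2 they were 0.50 and 0.65 on EMBV3_21893 and 0.46 and 0.52 on EMBV3_03257. The genes had the same order by mean ratio in both sets, which hold the same pools.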

How the data were processed

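Total RNA of 8 pools was amplified in 2 rounds and labelled with Cy3 or Cy5, per the labels' protocols. The deposited scanner tables give spot intensity and local background per channel, not normalized, per the file headers. The authors' series table holds a score of unstated unit, read here as the log2 glucose over the log2 control signal. Recovered ratios correlated with the scanner ratios at 0.934 to 0.996 over brighter probes, glucose over control on every array. Its column medians were 0.9985, 0.9992, 0.9996, 0.9999, 0.9993, 0.9981, 0.999 and 1. Its normalization stays unknown, and it served as an alternative. The submitters' processing notes name limma.

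With limma 3.58.1 in R 4.3.3, mean intensities were corrected by normexp (offset 50), normalized by loess and turned to log2(glucose/control). The 2 arrays of a number, of opposite dyes, were averaged, a pairing inferred from the array titles: after removal of the dye effect same-numbered arrays correlated at 0.733, 0.773, 0.846 and 0.912 for pairs 1 to 4, and at most at 0.214 with another number. A probe was tested if either channel was above the mean plus 2 SD of the 153 negative control spots on 4 or more of the 8 arrays (32935 of 43794). On the array of pair 1 with glucose in Cy3 that limit was 1318, against 110 to 235 in Cy3 elsewhere, so many probes miss 1 glucose channel there. The test was lmFit and eBayes on 4 pair ratios against 0, 2-sided, with Benjamini-Hochberg adjustment over all tested probes, checked on simulated data. The labels do not say whether pools came from separate batches of embryos, so p-values measure only the spread between these pools. Pool levels used Aquantile scaling between arrays. A gene outside the members is read by its probe of highest mean signal.

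Names come from the array annotation given, in which 21790 probes have 1 symbol, 0 several, and the rest are unnamed here. All 5 member symbols are current RefSeq symbols. The array has no stated build, so no coordinates are given. The members and lists were chosen with earlier results of these data known. Outside the members, the text names 12 set genes of the system where measured, the 2 of lowest p in each system list, the 2 of largest mean ratio in each marker list, and the 3 nearest genes by pool level. KRT8, DAB2, ELF5, POU5F1, TAGLN, COL1A1, ACTA2, TWIST1, PTX3, HSD3B1, FGA and ITGAV, and the tally of trophectoderm markers, were added after their values were seen. So were markers named for having no channel above the negative controls.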

Additional observations from a re-analysis of the deposited data

Results flagged for a closer look

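Of 57 sets of 4 pair or pool values, 5 held a value far from the rest of its set. About 1 such set in 20 arises by chance, and none of the 5 was a member probe. SERPINF2 had -0.033 in pair 1, with -0.22, -0.22 and -0.23 in pairs 2 to 4. ANXA2 had 1.11 in pair 4, with -0.01, -0.02 and -0.06 in the others. SORL1, on its brightest probe, had 0.78 in pair 2, with -0.08, -0.01 and -0.09 in the other pairs. The median of plasminogen and its receptors was 0.42 in pair 4, with 0.00, -0.01 and -0.08 in the others, and the median of cumulus and granulosa markers was -0.062 there, with 0.06, 0.08 and 0.07.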

How the results depend on the processing

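The count of probes past the adjusted threshold was 0 under all 17 alternatives fitted. With no replicate block (the 8 arrays as independent ratios with a dye term) it was also 0, and the count at an unadjusted p under 0.05 went from 780 to 2711. That count was 412 with median centring, 492 for probes above the negative controls on all 8 arrays, 413 and 358 in array sets 047 and 056 alone, and 2056 with array weights. It ran from 478 without pair 1 to 1681 without pair 4, with 631 without pair 2 and 1358 without pair 3. The weights were 3.03, 1.07, 1.01 and 0.30 for pairs 1 to 4. The cause of these shifts was not tested. All 107 recomputed member ratios moved by less than the SD between pairs, but for many of them nothing else was possible. Aquantile scaling, the changed filters on dim probes and the fit with no replicate block leave these means as they were. Leaving out 1 or 2 of 4 pairs cannot move a mean by as much as that SD. Nothing is therefore read from that count. Leaving out 1 pair gave 0.90 to 1.63 for PLAT, -0.22 to 0.81 for PLAU, 0.30 to 0.55 for PLAUR and -0.06 to 0.44 for SERPINE2, and array weights gave 0.06 for PLAU. Pairs 2 and 4 alone, an alternative chosen after seeing the data, gave 0.47 for PLAT. The median of inhibitors outside the members ran from -0.0597 without pair 4 to 0.12, and was -0.11 with pairs 2 and 4 alone, where other serpins had -0.0011. Activating proteases and substrates had 0.0807 with median spot intensity. The span of EMBV3_03257 over pools was 2.45 from Cy5 channels alone, against 1.78. Near the floor, the offset of 50 shrinks ratios. That holds for PLAUR, for PLAT in pair 2 and for the dim genes of the plasminogen system lists.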
